A study of Homo sapiens with 10 samples.

Results

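The germline, meiosis and piRNA genes examined here are 38 autosomal genes whose known expression is largely restricted to germ cells, out of 58884 genes counted per library. They were taken as a named list, and they fall into 4 classes. There are 14 genes of the piRNA pathway, 12 meiotic genes, 6 germ-cell RNA-binding genes and 6 other germline genes. They were followed in poly(A) RNA-seq of HCT116, a human colorectal cancer cell line labelled wild type (6 libraries), and of DNMT1 KO cells, the HCT116 derivative in which exons of DNMT1 were deleted (4 libraries). The derivative is a single published line that still makes a low amount of a truncated DNMT1 protein, so it is a hypomorph. Both lines were grown in the same medium with no drug treatment, and the libraries are described as separate cultures. The comparison between the lines addresses which genes respond where DNMT1 is depleted. Differences between these lines cannot be told apart from differences that arose when 1 derivative line was made and propagated.

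Germline genes are held silent in somatic cells by several layers of repression. Many of their promoters are rich in CpG dinucleotides and are methylated after implantation, and the complex PRC1.6 with the transcription factor E2F6 binds some of them. DNMT1 copies DNA methylation onto the daughter strand after replication. In germ cells, piRNAs bound by PIWI proteins guide the silencing of transposons, Tudor domain proteins scaffold the granules in which piRNAs are made, and the synaptonemal complex and recombination proteins pair and join homologous chromosomes in meiosis.

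The samples are labelled with 4 batches. Both lines are present in batch 1 (1 library each) and batch 2 (2 each), whereas batch 3 is DNMT1 KO replicate 4 and batch 4 is HCT116 replicates 7 to 9, so neither of these gives a within-batch value. Total counts ran from 35418732 to 85991812 in HCT116 and from 26700853 to 55732013 in DNMT1 KO. DNMT1 itself was at 89.8 to 263 counts per 1000000 counts (CPM, on TMM-scaled library sizes) in HCT116 and at 14.1 to 22.3 CPM in DNMT1 KO. Low counts were mostly even in 9 libraries (64.4% to 70.0% of counts from 1 to 10), as when both mates of a read pair are counted, and not in DNMT1 KO replicate 4 (39.9%), so counts of 1 to 3 stand for very few fragments. Markers of the colorectal epithelium also moved between the lines. Of 8 such markers, 6 were tested, EPCAM, KRT8, KRT18 and CDH1 were lower in DNMT1 KO and VIL1 was higher, CDX2 was not called, and their summed level was 2003 to 4485 CPM in HCT116 and 455 to 717 CPM in DNMT1 KO. VIL1 shares 44% of its exonic bases with USP37 on the opposite strand, and no strand setting is stated for the counting. Of 6 fibroblast markers, COL3A1, LUM and PDGFRB were higher among the 4 tested, and COL1A1 was not called, at a log2 fold change of -0.90. The summed fibroblast level was 6.47 to 19.8 CPM against 16.6 to 21.4 CPM, and COL1A2 and DCN were at 0 in all HCT116 libraries. Leukocyte markers were low in both lines and some were higher in DNMT1 KO. CSF1R was at 0.124 to 0.586 CPM in HCT116 and 0.498 to 1.17 CPM in DNMT1 KO (log2 fold change 1.58, edgeR adjusted p of 0.056, and called higher by DESeq2 and the likelihood ratio test). CD3E was at 0 in all HCT116 libraries and at 0.0348 to 0.127 CPM in DNMT1 KO, CD14 and LYZ overlapped between the lines at 0.321 CPM or less, and PTPRC was at 0.0317 CPM or less, with 60.4% of its exonic windows also on alternate contigs of hg38. The part of these shifts in the germline values was not tested.

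Most of the 38 genes were silent or close to it in both lines, and among these 38, 1 gene accounted for most of the RNA that appeared in DNMT1 KO. CTCFL went from at most 0.302 CPM in HCT116 to at least 13.8 CPM in DNMT1 KO. NANOS3 and TDRD12 also rose, to means under 1 CPM. GTSF1, the single member that was abundant in HCT116, was lower in every DNMT1 KO library. By contrast 18 of the 38 genes stayed under 0.1 CPM in all 10 libraries, among them SPO11, SYCP1, DDX4, DAZL and STRA8.

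The number of members that reached 0.1 CPM was 5, 8, 9, 8, 9 and 12 in HCT116 replicates 1, 2, 3, 7, 8 and 9. It was 14, 13, 15 and 13 in DNMT1 KO replicates 1 to 4. The same number was not worked out over all genes, so whether this is particular to germline genes was not tested. The limit is near the floor, since 3 counts were 0.0928 CPM in HCT116 replicate 1 and 0.104 CPM in DNMT1 KO replicate 4. The summed level of the members other than GTSF1 was 3.14 to 5.67 CPM in HCT116 and 19.6 to 29.8 CPM in DNMT1 KO, most of it CTCFL. In these bulk libraries, a few cells that express a gene strongly and many that express it weakly cannot be told apart.

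**Figure D1:**
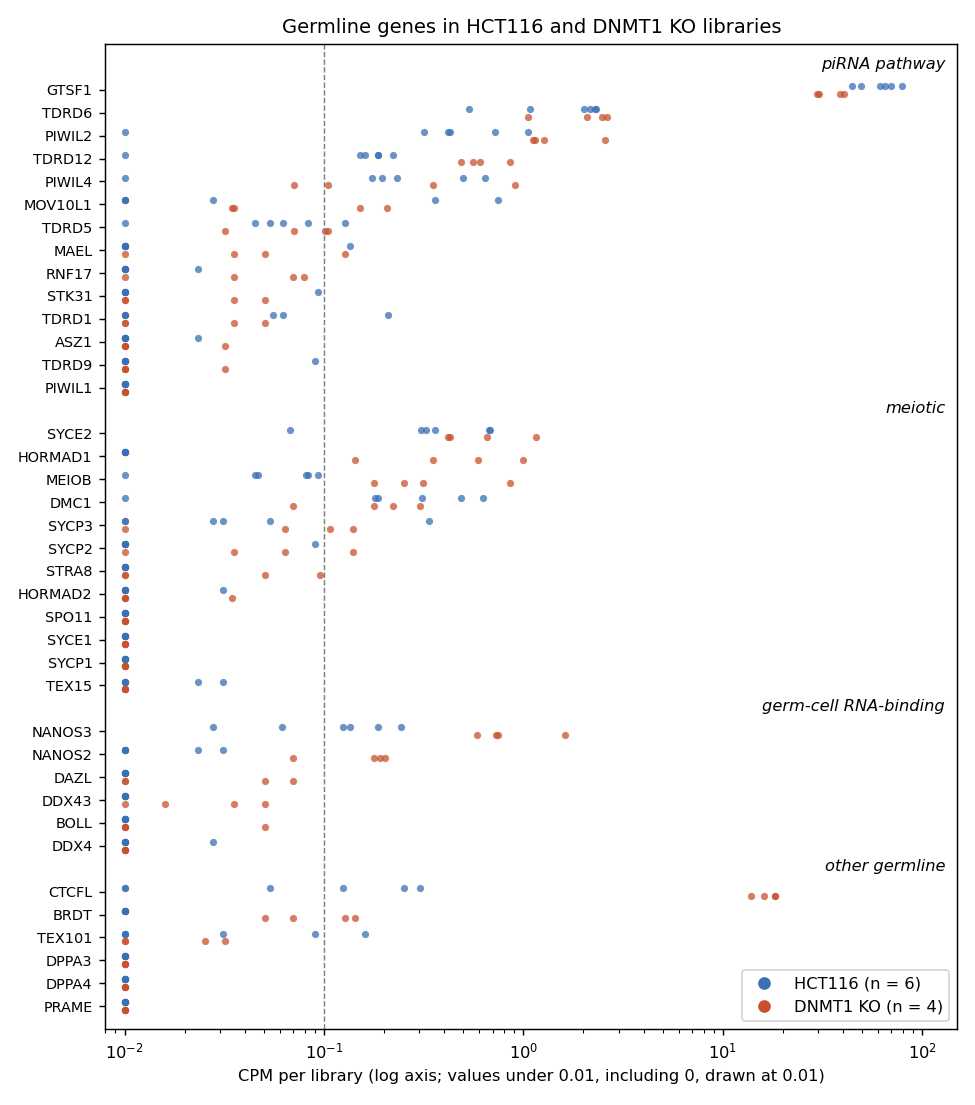
CPM of each of the 38 germline genes in each library on a log axis, with values under 0.01 drawn at 0.01 and the dashed line at 0.1 CPM. Blue points are the 6 HCT116 libraries and orange points the 4 DNMT1 KO libraries, and CTCFL is the gene with the widest gap between the lines, with DNMT1 KO at 13.8 to 18.2 CPM.

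In the fit across all genes, 9 members had enough counts to be tested among 19279 genes. A gene was called when edgeR's quasi-likelihood test gave an adjusted p under 0.05 and the log2 fold change passed 1 in size. CTCFL, NANOS3 and TDRD12 were called higher in DNMT1 KO, 3 of the 9, where 7.42% of all tested genes were called higher. No member was called lower, where 6.49% of all tested genes were. At an unadjusted p under 0.05 there was 1 lower member, GTSF1, and DESeq2 and the edgeR likelihood ratio test called 0 lower. The median log2 fold change was 0.76 over the 9 tested members and -0.07 over all tested genes. With library totals alone as the scaling, the median of all genes shifted to 0.14, and 1878 genes were higher and 956 lower in place of 1431 and 1251. Every DNMT1 KO library was above every HCT116 library in 4 of the 9, where this held for 8.4% of all tested genes, and below in 1, against 6.79%. A gene silent in HCT116 passes the filter on low counts only if it is high in DNMT1 KO, so these shares describe the tested genes and not the 38. The members were also chosen with earlier results of these data known, so the shares do not test whether germline genes rise more often.

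CTCFL (BORIS), the testis paralog of the insulator protein CTCF, lies on the minus strand of chromosome 20 (hg38, 57495966 to 57525652). Its level in HCT116 replicates 1, 2, 3, 7, 8 and 9 was 0, 0, 0.0535, 0.251, 0.124 and 0.302 CPM. In DNMT1 KO replicates 1 to 4 it was 18.2, 13.8, 18.2 and 16.1 CPM, so the lines were far apart and the DNMT1 KO libraries varied little. The log2 fold change was 6.88 ± 0.65 (SE), with an adjusted p of 3.24e-06 by edgeR's quasi-likelihood test. On a per-length scale (CPM per kilobase of exon) it went from 0.0136 to 1.86, which made it the second most abundant member in DNMT1 KO. Its reads could be assigned well, since 0.785% of its 50-base exonic windows were repeated at another locus. A fit that included batch gave a larger log2 fold change of 9.71, and batch 2 alone gave 9.20. HCT116 replicates 1, 2 and 3, the HCT116 libraries of batches 1 and 2, had 0, 0 and 2 counts. Both values therefore rest on very few HCT116 counts.

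NANOS3, an RNA-binding protein needed for the survival of primordial germ cells, is on the plus strand of chromosome 19 (13862063 to 13880757). It was at 0.0619, 0.135, 0.187, 0.0279, 0.124 and 0.244 CPM in HCT116 replicates 1, 2, 3, 7, 8 and 9. The DNMT1 KO replicates 1 to 4 were at 1.62, 0.746, 0.587 and 0.730 CPM, all above the HCT116 range, with replicate 1 the highest. The log2 fold change was 2.78 ± 0.55 (SE), with an edgeR adjusted p of 0.0023. It was 2.38 without DNMT1 KO replicate 1. In batch 2 alone, the difference kept its direction (log2 fold change of 2.04) and was no longer called, at an adjusted p of 0.134.

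TDRD12, a Tudor domain protein with a helicase domain that acts in secondary piRNA production, is on the plus strand of chromosome 19 (32719753 to 32829580). HCT116 replicates 1, 2, 3, 7, 8 and 9 were at 0.186, 0, 0.160, 0.223, 0.186 and 0.151 CPM. DNMT1 KO replicates 1 to 4 were at 0.556, 0.853, 0.603 and 0.487 CPM, so the groups did not overlap, although the gene stayed under 1 CPM in every library. The log2 fold change was 2.02 ± 0.57 (SE), with an edgeR adjusted p of 0.0253. The call was lost without DNMT1 KO replicate 1 (adjusted p = 0.0561), without DNMT1 KO replicate 2 (adjusted p = 0.0954) and when batches 1 and 2 were fitted together with a batch term (adjusted p = 0.0774). The log2 fold change in these fits was 2.10, 1.84 and 2.62. For all of CTCFL, NANOS3 and TDRD12, every DNMT1 KO library of batches 1 and 2 was above every HCT116 library of its batch.

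**Figure D2:**
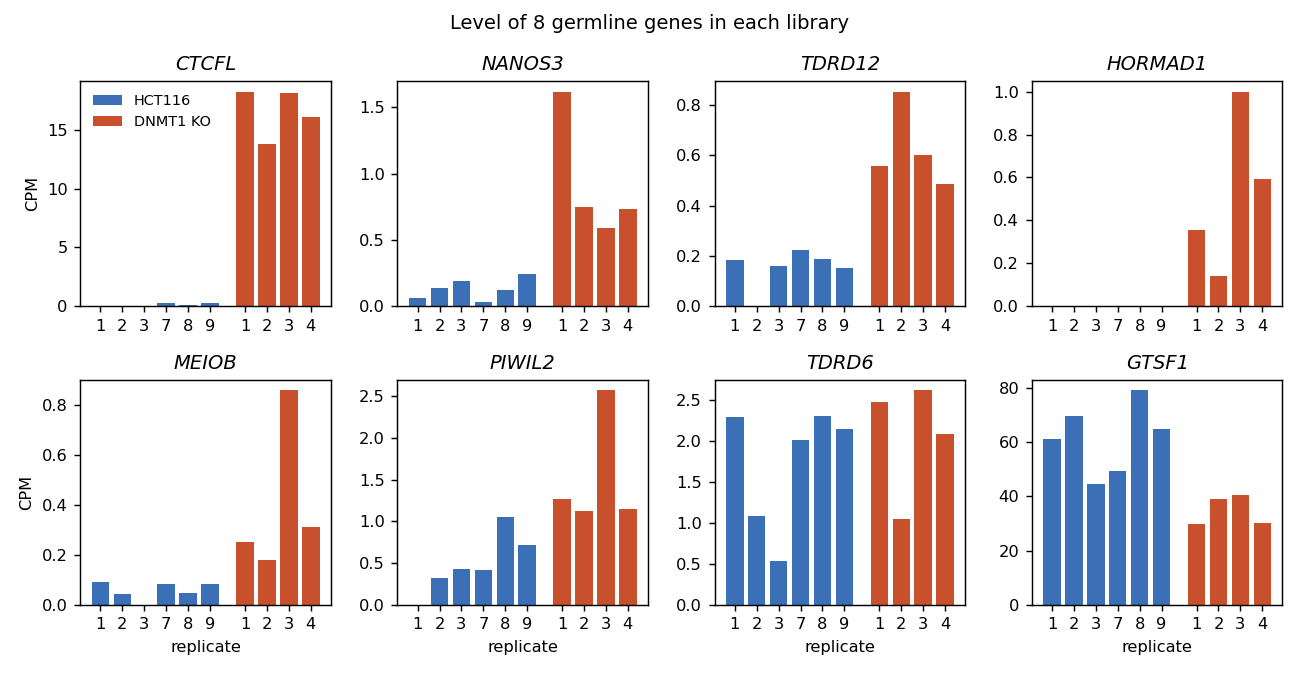
CPM of 8 germline genes, 1 bar per library, with replicates of HCT116 in blue and of DNMT1 KO in orange and each axis starting at 0. CTCFL, NANOS3, TDRD12, HORMAD1, MEIOB and PIWIL2 are higher in every DNMT1 KO library than in any HCT116 library, TDRD6 overlaps between the lines and GTSF1 is lower in every DNMT1 KO library.

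The other members of the piRNA pathway did not move together. PIWIL2, a PIWI protein that binds primary piRNAs, was at 0, 0.316, 0.428, 0.418, 1.05 and 0.720 CPM in HCT116 replicates 1, 2, 3, 7, 8 and 9, and at 1.26, 1.12, 2.57 and 1.15 CPM in DNMT1 KO replicates 1 to 4. The lines did not overlap, though the highest HCT116 library came within 0.1 CPM of the lowest DNMT1 KO library. The log2 fold change was 1.61 ± 0.64 (SE), and at an edgeR adjusted p of 0.109 it was not called. Once batch was included it passed, with a log2 fold change of 2.99 and an adjusted p of 0.0069, and without HCT116 replicate 1 its adjusted p was 0.0491.

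GTSF1, a small zinc finger protein that licenses PIWI proteins to cut their targets, was the most abundant member in both lines. On the per-length scale it was at 24.4 in HCT116 and at 13.8 in DNMT1 KO, against 1.86 for CTCFL, the next in DNMT1 KO. Its level was 61.2, 69.7, 44.6, 49.4, 79.1 and 64.8 CPM in the 6 HCT116 libraries and 29.7, 38.9, 40.6 and 30.2 CPM in DNMT1 KO. All DNMT1 KO libraries lay below all HCT116 libraries. The log2 fold change was -0.82 ± 0.23 (SE), with an edgeR adjusted p of 0.0223, and it did not pass the limit on the fold change. The adjusted p was 0.0874 under scaling by library totals, 0.105 in the fit with batch, 0.0954 without DNMT1 KO replicate 1 and 0.0818 without DNMT1 KO replicate 4. In each of these fits the log2 fold change stayed negative.

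TDRD6, a large Tudor domain protein of the spermatid chromatoid body, was already present in HCT116 at 2.29, 1.08, 0.535, 2.02, 2.31 and 2.15 CPM. It was at 2.47, 1.05, 2.62 and 2.08 CPM in DNMT1 KO. The lines overlapped, with DNMT1 KO replicates 1 and 3 above the highest HCT116 library, and its log2 fold change of 0.24 ± 0.43 (SE) had an edgeR adjusted p of 0.766. PIWIL4, the PIWI protein that enters the nucleus to direct transposon methylation in male germ cells, ranged from 0 to 0.642 CPM in HCT116 and from 0.0711 to 0.905 CPM in DNMT1 KO. Its log2 fold change of 0.35 ± 0.80 (SE) had an edgeR adjusted p of 0.820 and turned to -0.70 without DNMT1 KO replicate 3. Of its exonic bases, 15.2% are shared with FUT4 on the same strand and PIWIL4-AS1.

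The remaining 9 genes of the piRNA class were too low to test. PIWIL1, RNF17, STK31, ASZ1 and TDRD9 stayed under 0.1 CPM in every library, and TDRD1, TDRD5, MOV10L1 and MAEL reached 0.209, 0.128, 0.749 and 0.135 CPM at most. MOV10L1, the helicase that feeds precursor RNA into piRNA production, had its highest values in HCT116 replicates 2 and 3, at 0.361 and 0.749 CPM. MAEL, a piRNA factor and cancer-testis gene, had 6 counts in 1 HCT116 library and 2, 2, 8 and 0 counts in DNMT1 KO. Neither gene separated the lines.

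Among the 12 meiotic genes, SYCE2 and DMC1 were tested and neither was called. SYCE2, a central element protein of the synaptonemal complex, was at 0.0677 to 0.681 CPM in HCT116 and 0.417 to 1.16 CPM in DNMT1 KO, and its log2 fold change of 0.76 ± 0.55 (SE) had an edgeR adjusted p of 0.407. It shares 24.1% of its exonic bases with GCDH on the opposite strand. DMC1, the meiotic recombinase, was at 0 to 0.627 CPM in HCT116 and 0.0695 to 0.303 CPM in DNMT1 KO, with a log2 fold change of -0.65 ± 0.73 (SE) and an edgeR adjusted p of 0.621. With batch as a term the sign of the DMC1 estimate was positive, at 0.94.

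Without the filter on low counts, 31 members had at least 1 count and 35231 genes were fitted. Here 7 of the 31 were called higher, where 5.58% of all genes were. CTCFL, NANOS3 and TDRD12 were joined by HORMAD1, MEIOB, NANOS2 and BRDT. HORMAD1, which marks unsynapsed chromosome axes in meiosis and is also known as a cancer-testis gene, had 0 counts in all 6 HCT116 libraries and 14, 8, 63 and 17 counts in DNMT1 KO replicates 1 to 4. This corresponds to 0.354, 0.142, 1.000 and 0.591 CPM, so replicate 3 was the highest and replicate 2 the lowest. The mean of HORMAD1 in DNMT1 KO was 58.5-fold a floor of 3 counts over the HCT116 group, and the edgeR adjusted p was 3.2e-06 in the unfiltered fit. Where both mates of a pair are counted, 3 counts stand for fewer than 3 fragments, so this fold is not a firm lower bound.

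MEIOB, a single-stranded DNA binding protein of meiotic recombination, had 3, 2, 0, 6, 3 and 7 counts in HCT116 and 10, 10, 54 and 9 counts in DNMT1 KO. The levels were 0 to 0.0928 CPM against 0.253, 0.178, 0.857 and 0.313 CPM, and the lines did not overlap. Its unfiltered log2 fold change was 2.68 ± 0.72 (SE), with an edgeR adjusted p of 0.0103. Without DNMT1 KO replicate 3, it was 1.96 with an adjusted p of 0.159. MEIOB shares 18.0% of its exonic bases with LINC00254 and with FAHD1 on the opposite strand, and 21.7% of its windows also lie on alternate contigs of hg38. FAHD1 was at 53.8 ± 21.6 CPM (SD, n = 6) in HCT116 and 59.7 ± 21.98 CPM (SD, n = 4) in DNMT1 KO. Because no strand setting is stated for the counting, reads of the overlapping genes cannot be told apart in the shared stretch.

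NANOS2, the translational repressor that keeps male germ cells out of meiosis, had 0, 0, 0, 0, 2 and 2 counts in HCT116 and 8, 10, 12 and 2 counts in DNMT1 KO. The levels in DNMT1 KO were 0.202, 0.178, 0.190 and 0.0695 CPM, against at most 0.0310 CPM in HCT116. Its unfiltered log2 fold change was 3.60 ± 1.00 (SE), with an edgeR adjusted p of 0.0135. BRDT, the testis bromodomain protein that reads acetylated histones in spermatids, had 0 counts in all HCT116 libraries and 2, 8, 8 and 2 counts in DNMT1 KO, or 0.0505, 0.142, 0.127 and 0.0695 CPM. Its mean was 10.9-fold the floor of 3 counts over the HCT116 group, with an unfiltered edgeR adjusted p of 0.0057. As for HORMAD1, this fold is not a firm lower bound. With batch as a term this call was lost at an adjusted p of 0.169, while the log2 fold change was 5.53 against 5.39 without it. BRDT thus rests on 20 counts in all.

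**Figure D3:**
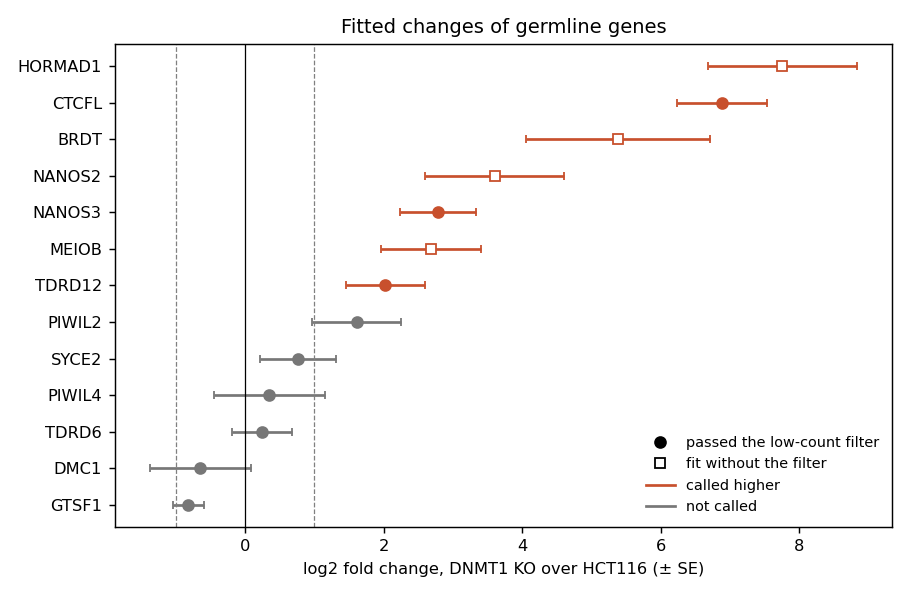
Log2 fold change of DNMT1 KO over HCT116 with its SE for the 9 tested members (filled circles) and the 4 members called higher only in the fit without the low-count filter (open squares), with orange for called and grey for not called. CTCFL at 6.88 and HORMAD1 at 7.76 stand highest, GTSF1 at -0.82 lowest, and dashed lines mark the limit of 1; HORMAD1 and BRDT have no counts in HCT116, so their fitted values depend on the prior count.

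The other meiotic genes stayed near 0. SYCP1, SYCE1 and SPO11, the transverse filament and central element proteins of the synaptonemal complex and the enzyme that makes meiotic double-strand breaks, had 0 counts in all 10 libraries. STRA8, the retinoic acid target that starts meiosis, had 0 counts in HCT116 and 2, 0, 6 and 0 in DNMT1 KO. TEX15 had 2 counts in each of 2 HCT116 libraries and HORMAD2 had at most 2 counts in any library. SYCP2 and SYCP3, the axial element proteins, reached 0.139 CPM in DNMT1 KO. SYCP3 was highest in HCT116 replicate 9, at 0.337 CPM, and 14.8% of its exonic bases are shared with CHPT1 on the opposite strand.

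DAZL, BOLL, DDX4 and DDX43 of the RNA-binding class stayed under 0.1 CPM in every library. DAZL and BOLL, translational regulators of the DAZ family, had 0 counts in HCT116 and at most 2 counts in any DNMT1 KO library. DDX4, the Vasa helicase, had 2 counts in 1 HCT116 library and 0 in all DNMT1 KO libraries, and DDX43 had 2, 2, 1 and 0 counts in DNMT1 KO. Among the other germline genes, TEX101, a surface protein of sperm, was at most at 0.160 CPM, in HCT116. DPPA3 and DPPA4, factors of oocytes and pluripotent cells, and the cancer-testis gene PRAME had 0 counts throughout. If each count were 1 fragment, a count of 0 would allow up to 3 counts, which was 0.0348 to 0.104 CPM depending on the library. The limit is higher where both mates of a pair are counted.

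How far these zeros can be read depends on the sequence of the gene. Reads with a mapping quality under 10 had been removed, so sequence that occurs more than once in the index loses its counts. For each gene, 50-base windows of its exons were searched in hg38 with its alternate contigs. All of the windows of PRAME and 98.8% of those of PIWIL1 also lie on an alternate contig. Across the 154 listed genes found, 5 had at least 90% of their windows there and all 5 were at 0 in every library, RING1 among them, a Polycomb subunit that most cells express. Of the other 149 genes, 20 were at 0 throughout. Whether the index held alternate contigs is not given in the sources used here, so the zeros of PRAME and PIWIL1 cannot be read as absence of expression. In DPPA3, 45.1% of the windows are repeated at other loci, and in SYCE1 14.8% are repeated and 53.3% of exonic bases are shared with CYP2E1. For SPO11, SYCP1 and DPPA4, at least 90% of windows were found once, so repeated sequence limits their zeros little. The alignment was without splicing, so reads across exon junctions can be lost. These genes have 14, 35 and 7 merged exons. How far this lowers their counts was not tested, so their zeros are not firm absence.

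**Figure D4:**
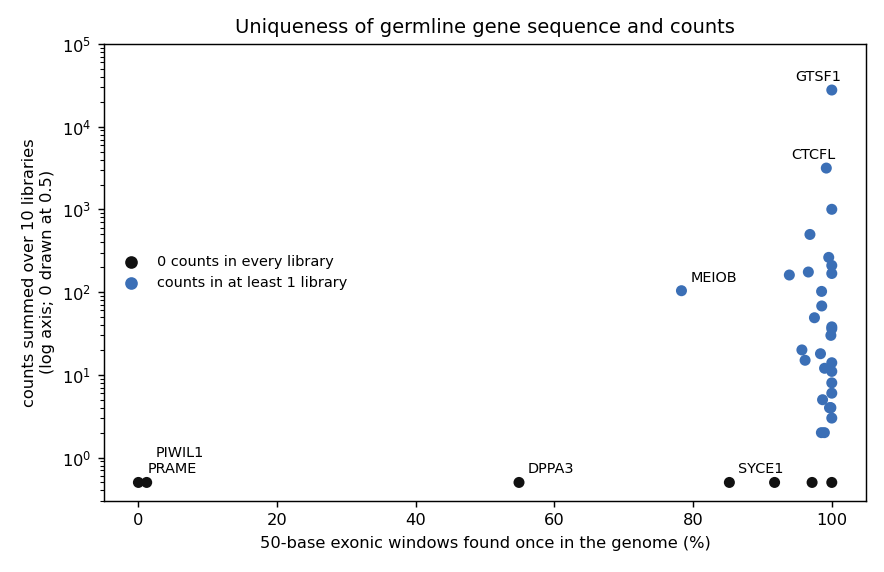
Counts of each of the 38 genes summed over the 10 libraries (log axis, 0 drawn at 0.5) against the share of its 50-base exonic windows found once in hg38 with alternate contigs. PRAME and PIWIL1 sit at the far left with 0 counts, DPPA3 and SYCE1 have lowered shares with 0 counts, and every gene with counts except MEIOB lies above 90%.

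Promoter sequence is shown because methylation acts on CpG dinucleotides. Among the genes called higher that have a promoter here, the 250 bases upstream of the start were not all rich in CpG. Sequence downstream of the start was not counted, and the part of methylation in these changes was not tested. RefSeq promoters (GRCh38.p14) were matched for 32 members at a start within 1000 bases of that of the canonical transcript, and the 250 bases upstream were compared with those of 18036 genes. HORMAD1, MEIOB, PIWIL2, PIWIL4, TEX15 and DDX4 were not among the 32. The windows below run 5′ to 3′ on the strand of the gene, and the capitals mark CpG dinucleotides. CTCFL, NANOS3 and TDRD12 were called higher with the low-count filter, and BRDT only without it. DAZL and MAEL, the last 2, were too low to test with the filter and were not called without it.
CTCFL (chr20:57525141-57525390, minus strand): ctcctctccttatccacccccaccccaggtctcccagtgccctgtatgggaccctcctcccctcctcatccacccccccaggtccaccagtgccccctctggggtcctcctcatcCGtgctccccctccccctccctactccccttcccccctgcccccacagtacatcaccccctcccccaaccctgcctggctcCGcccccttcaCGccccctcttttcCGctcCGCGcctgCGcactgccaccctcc
NANOS3 (chr19:13876884-13877133, plus strand): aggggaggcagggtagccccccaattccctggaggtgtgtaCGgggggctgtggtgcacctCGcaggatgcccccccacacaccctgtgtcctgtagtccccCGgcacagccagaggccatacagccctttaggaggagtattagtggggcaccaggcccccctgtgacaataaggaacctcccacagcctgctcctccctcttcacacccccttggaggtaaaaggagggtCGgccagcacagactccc
TDRD12 (chr19:32719517-32719766, plus strand): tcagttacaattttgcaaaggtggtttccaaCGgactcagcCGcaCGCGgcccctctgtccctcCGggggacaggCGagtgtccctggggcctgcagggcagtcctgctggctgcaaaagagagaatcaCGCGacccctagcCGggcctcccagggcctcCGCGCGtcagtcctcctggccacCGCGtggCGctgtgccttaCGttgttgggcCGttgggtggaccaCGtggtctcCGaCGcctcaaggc
BRDT (chr1:91949151-91949400, plus strand): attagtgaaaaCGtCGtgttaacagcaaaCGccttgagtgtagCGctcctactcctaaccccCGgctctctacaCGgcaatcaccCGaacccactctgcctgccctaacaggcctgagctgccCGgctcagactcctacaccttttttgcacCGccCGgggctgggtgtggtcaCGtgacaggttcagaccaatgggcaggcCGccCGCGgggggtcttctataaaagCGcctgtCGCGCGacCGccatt
DAZL (chr3:16605424-16605673, minus strand): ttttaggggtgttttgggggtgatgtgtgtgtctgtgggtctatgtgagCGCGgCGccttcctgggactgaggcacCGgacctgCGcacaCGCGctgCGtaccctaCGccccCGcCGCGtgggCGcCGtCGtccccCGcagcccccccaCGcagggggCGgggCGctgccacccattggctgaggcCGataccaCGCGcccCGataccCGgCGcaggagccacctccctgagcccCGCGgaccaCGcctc
MAEL (chr1:166989030-166989279, plus strand): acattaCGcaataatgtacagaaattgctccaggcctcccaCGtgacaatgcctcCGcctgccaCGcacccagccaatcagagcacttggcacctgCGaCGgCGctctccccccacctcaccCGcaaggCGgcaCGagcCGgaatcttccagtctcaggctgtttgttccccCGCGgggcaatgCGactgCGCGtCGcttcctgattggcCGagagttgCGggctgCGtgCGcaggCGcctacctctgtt

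These windows held 7 CpG in CTCFL, 4 in NANOS3, 20 in TDRD12 and 19 in BRDT, against 28 in DAZL and 22 in MAEL. NANOS2 had 1 CpG in its window. The median was 19 over the 32 members and 17 over all genes (quartiles 6 and 26). At least 10 CpG were found in 24 of the 32 members and in 67.6% of all promoters. TDRD9 had the most, with 35, and was silent, and DPPA4 had 3 and was at 0 throughout, so windows with many and with few CpG were found among the silent members. GTSF1 and CTCFL, the members with the highest mean CPM in DNMT1 KO (34.8 and 16.6), had 8 and 7 CpG. TDRD6, with 19 CpG, was at a mean of 2.06 CPM there. Several of these genes have more than 1 annotated start, and the start closest to that of the canonical transcript was used. The E2F core TCCCGC was present on either strand in 11 of the 32 and in 30.3% of all promoters. The windows of CTCFL, NANOS3, TDRD12, NANOS2 and BRDT held no E2F core. The E-box CACGTG, the site bound by MAX with its partners, was present in 7 of the 32 and in 7.55% of all promoters. The 7 were TDRD12 and BRDT, and TDRD1, TDRD5, STK31, MAEL and SYCE1, which were not called higher. Both motifs contain a CpG. A match is a description of the letters in this window only.

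**Figure D5:**
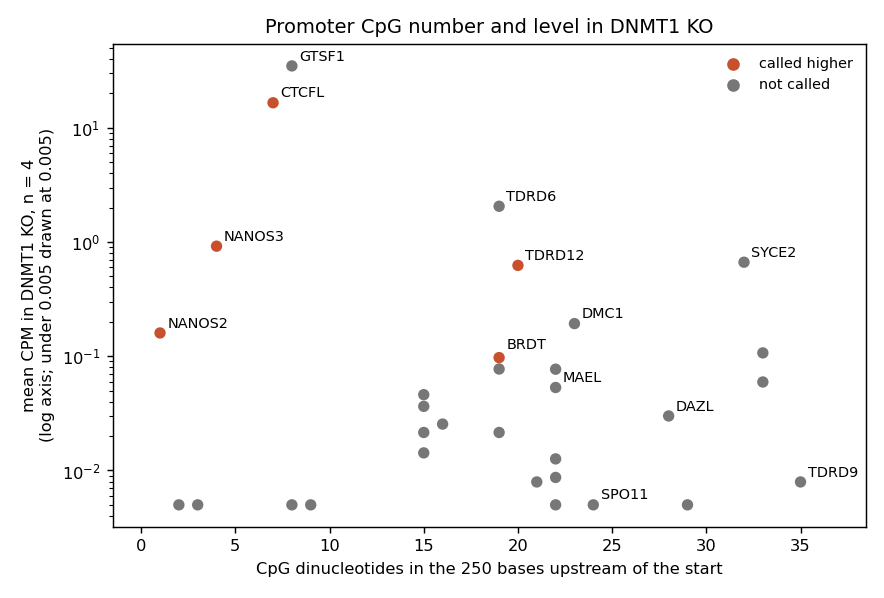
Mean CPM in DNMT1 KO (n = 4, log axis, values under 0.005 drawn at 0.005) against the number of CpG dinucleotides in the 250 bases upstream of the start for 32 members, with orange for genes called higher with or without the low-count filter. CTCFL, NANOS3 and NANOS2 have 7, 4 and 1 CpG, TDRD12 and BRDT have 20 and 19, and genes with more than 25 CpG include DAZL and TDRD9 near the bottom.

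Other genes of the same programmes gave a mixed picture. From lists of 87 further germline genes, 85 were found and 37 were tested, with 3 called higher (where 7.42% of all tested genes were), 2 called lower (6.49%) and a median log2 fold change of -0.07, so their shares were near those of all tested genes. TEX14, which holds the intercellular bridges of germ cells open, was at 0.278 to 1.16 CPM in HCT116 and 12.1 to 21.8 CPM in DNMT1 KO, with a log2 fold change of 4.49 ± 0.38 (SE) and an edgeR adjusted p of 1.23e-06. NANOS1, a relative of NANOS3, rose from 2.11 ± 0.49 CPM (SD, n = 6) to 8.83 ± 2.27 CPM (SD, n = 4) at an edgeR adjusted p of 0.000146. MEIOSIN, the partner of STRA8 in starting meiosis, went from 2.47 ± 0.98 CPM (SD, n = 6) to 7.96 ± 1.87 CPM (SD, n = 4) at an edgeR adjusted p of 0.0025, while STRA8 itself stayed under 0.1 CPM.

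TDRD3, a Tudor domain protein expressed widely outside the germline, and TFAP2C, a transcription factor of primordial germ cells and epithelia, fell. Their log2 fold changes were -1.36 ± 0.23 (SE) and -1.13 ± 0.33 (SE), with edgeR adjusted p of 0.000697 and 0.0278. TFAP2C was not called with library totals alone, in batch 2 alone, without HCT116 replicate 1 or 3, or without DNMT1 KO replicate 1, 2 or 4. By list, 0 of 5 tested other piRNA genes were called higher and 1 lower, 1 of 17 other meiotic genes was called higher and 0 lower, 1 of 6 other RNA-binding genes was called higher and 0 lower, and of 6 germ-cell identity genes 1 was called in each direction. Of 3 tested late spermatid genes, 0 were called, with 1 lower at an unadjusted p under 0.05 and 0 called by DESeq2 or the likelihood ratio test. Without the low-count filter, 9 of 68 were called higher, where 5.58% of the 35231 genes fitted were, and 2 lower, where 4.39% were. The 6 that were added, FKBP6, EXD1, TDRD10, ADAD2, SOHLH1 and LDHC, are named after their values were seen. As for the members, a gene at 0 in HCT116 entered this fit only through counts in DNMT1 KO.

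Subunits of PRC1.6 and E2F6 were measured in the same libraries. Of 11 genes 10 were tested, RING1 being at 0. By edgeR's quasi-likelihood test 0 were called, where 7.42% of all tested genes were called higher and 6.49% lower, and 1 was higher at an unadjusted p under 0.05. DESeq2 and the likelihood ratio test called 0 of the 10. Their log2 fold changes in the edgeR fit lay between -0.39 and 0.80 and the smallest adjusted p was 0.0809. Their summed level was 598 to 830 CPM in HCT116 and 742 to 809 CPM in DNMT1 KO. In E2F6 and PCGF6, 34.4% and 25.4% of the exonic windows are repeated at other loci.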

How the data were processed

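RNA-seq libraries were stranded poly(A) libraries read as pairs of 50 bases. The authors trimmed reads with Trim Galore 0.4.1, aligned them to hg38 with Bowtie2 without splicing, removed mapping qualities under 10 and counted exonic reads per Ensembl gene with featureCounts. The deposited values are raw counts, 1 table per library, and no strand setting was stated. Further count tables, 3 in number, that match no sample here were not used.

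Counts of the 6 HCT116 and 4 DNMT1 KO libraries (named by line and replicate number) were fitted in R 4.3.3 with edgeR 4.0.16 (filterByExpr, TMM, quasi-likelihood test, group as the sole term, script tested on simulated counts, Benjamini-Hochberg over all genes tested). Genes were called at an adjusted p below 0.05 with a log2 fold change beyond 1 in size. Alternatives used DESeq2 1.42.0, other scalings and filters, batch terms and left-out libraries. CPM used TMM library sizes, and intervals and floors cover counting error only and take each count as 1 fragment. All 38 members are named. Values in every library are given for members called or with a mean of at least 1 CPM in a line, and up to 3 called genes per direction are named from each further list. Members and lists were chosen with earlier results of these data known. A result on 1 marker gene is not reported here.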

Additional observations from a re-analysis of the deposited data

Results flagged for a closer look

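For members with tested values, each line's libraries were searched for a value far from the others by Dixon's ratio at its 95% limit. Of 23 groups of values examined, 3 stood out, where chance gives about 1.15. The level of PIWIL2 in DNMT1 KO replicate 3 was 2.57 CPM, and the other DNMT1 KO libraries were at 1.12 to 1.26 CPM. TDRD12 was at 0 in HCT116 replicate 2, and the other HCT116 libraries were at 0.151 to 0.223 CPM. NANOS3 was at 1.62 CPM in DNMT1 KO replicate 1, and the other DNMT1 KO libraries were at 0.587 to 0.746 CPM.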

How the results depend on the processing

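RLE factors, library totals and halved counts called CTCFL, NANOS3 and TDRD12 as in the report, and DESeq2 and the likelihood ratio test added PIWIL2 (4 members). The count of 3 members called higher was 7 with no filter on low counts, 0 where at least 10 counts were required in every library, since CTCFL, NANOS3 and TDRD12 then drop out, and 1 (CTCFL) in batch 2 alone. Leaving out 1 library gave 3 to 5 members, with 5 without HCT116 replicate 1 (PIWIL2 and MEIOB added) and 5 without DNMT1 KO replicate 4 (MEIOB and NANOS2 added). Without the fold limit, 1 member was lower (GTSF1). Among the further germline genes, 3 higher became 9 without the filter, 6 with batch as a term, 5 when batches 1 and 2 were fitted with a batch term and 5 in batch 2 alone, and leaving out 1 library gave 3 to 6. The 2 lower became 3 with batch as a term and 3 when batches 1 and 2 were fitted with a batch term. They became 1 with library totals alone and 1 in batch 2 alone, and leaving out 1 library gave 1 to 2. The 7 members called without the filter became 5 to 8 when 1 library was left out and 5 in batch 2 alone, and without DNMT1 KO replicate 3 TDRD12 and MEIOB were lost. The estimate of PIWIL4 reversed to -0.21 in batch 2 alone and to -0.70 without DNMT1 KO replicate 3 (-0.70 to 0.75 when 1 library was left out), and that of DMC1 reversed to 0.94 with batch as a term. The causes were not tested. The silent limit of 0.5 CPM in place of 0.1 gave 26 members.

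Replicates 1 to 3 of each line share numbers, and the correlation of deviations from the group means was 0.46, -0.20 and 0.37, so the numbers were not taken to pair the samples. With the replicate number as a block, 3 members were higher (PIWIL2, NANOS3 and CTCFL) and 0 lower, with 4 further germline genes higher and 3 lower. In that fit, log2 fold changes were 9.71 for CTCFL, 2.76 for NANOS3, 2.92 for PIWIL2 and 2.70 for TDRD12. The value of CTCFL rests on 0, 0 and 2 counts in HCT116. The unfiltered fit with the block called 6 members.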
